A study of Mus musculus with 2 samples.

Results

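The lipoprotein lipase system is described here by 9 genes of the deposited expression table, taken by gene symbol from its 31920 rows. They are Lpl, Angptl4, Gpihbp1, Lmf1, Cd36, Vldlr, Fabp4, Fabp5 and Aqp7, and every one has a row. The RNA came from the left ventricle of 1 male mouse labelled Lamp2 knockout and of 1 wildtype male mouse, both of the 129-SvEv strain and 10 weeks old, and polyadenylated transcripts were sequenced. LAMP2 is a membrane protein of lysosomes, and the series title places the study in cardiomyopathy and impaired autophagy. The labels do not say which part of Lamp2 the allele removes or in which cells. With 1 library per genotype no spread between animals can be estimated. No test of the genotypes was therefore made, and every interval below covers counting error only.

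The heart takes most of its fuel from fatty acids, many of which reach it as triglyceride in lipoproteins. Lipoprotein lipase, made mainly by cardiomyocytes, is folded with the help of LMF1, secreted, and carried to the capillary lumen by GPIHBP1, where it releases fatty acids from triglyceride. ANGPTL4 inactivates the lipase, the VLDL receptor binds triglyceride-rich lipoproteins, CD36 takes up the freed fatty acids, FABP4 and FABP5 carry them through endothelial cells, and AQP7 passes glycerol.

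The library labelled Lamp2 knockout held 8773820 reads assigned to genes and the wildtype library 8410593. Levels are given in reads per 1000000 reads assigned to genes (RPM). The upper limit behind a count of 0 is 3 reads, or 0.342 RPM in the knockout-labelled library and 0.357 RPM in the wildtype. Lamp2 itself had 112 RPM in the knockout-labelled library and 118 RPM in the wildtype, so its count over the whole gene does not check the genotype label. Mitochondrial rows took 16.2% of reads in the knockout-labelled library and 26.5% in the wildtype, and each RPM is a share of that total. Values were therefore also computed under 3 rescalings, by the median ratio of all genes, by a trimmed mean of log ratios, and by a total that leaves out mitochondrial rows and the 10 most abundant genes, which lower every log2 ratio of RPM by 0.09 to 0.20. Cardiomyocyte markers summed to 68190 RPM in the knockout-labelled library and 70208 RPM in the wildtype, a ratio of 0.971, with 0 of 15 past 2-fold. The 6 atrial markers summed to 35.6 RPM in the knockout-labelled library and 23.1 RPM in the wildtype. Of these 6, 2 were measured, and both were higher. Dkk3 and Stard10 had 80 and 215 reads in the knockout-labelled library and 25 and 127 in the wildtype. Under the minimum, Myl7 and Sln had 4 and 1 reads in the knockout-labelled library and 19 and 5 in the wildtype.

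Among the 9 genes, the lipase inhibitor Angptl4 and the glycerol channel Aqp7 were much lower in the knockout-labelled library, Vldlr was lower by less than 2-fold, and the lipase anchor Gpihbp1 was about 2-fold higher. Lpl was modestly higher, Cd36 and Fabp4 modestly lower, and Lmf1 and Fabp5 did not differ beyond counting error. A gene counted as measured if it reached 5 RPM in the higher library, and as past 2-fold if its log2 ratio of RPM + 1, knockout-labelled over wildtype, was at least 1 in size. Of the 9 genes, 8 were measured. Of these 8, 1 was at least 2-fold higher and 2 were at least 2-fold lower, against 3.35% and 2.37% of all 10209 measured genes (5.72% either way). Under the median ratio, the trimmed mean and the reduced total, 0 of 8 were at least 2-fold higher, against 2.42%, 2.58% and 2.08% of all measured genes. Lower by at least 2-fold were 2, 2 and 3 of the 8, against 3.05%, 2.87% and 3.73%. At 1.5-fold, 1 was higher and 3 were lower, against 12.8% and 7.3%, and at 3-fold 2 were lower, against 0.451%. Counting intervals of the ratio lay above 1 for Lpl and Gpihbp1, as for 35% of measured genes, and below 1 for 5 of the 8, against 16.8%. The median log2 ratio of the 8 was −0.32, and that of all measured genes was 0.11. Of all measured genes, 61.2% had a log2 ratio above 0 and 3957 of 10209 one below 0, the shares against which counts by direction are read. In bulk tissue, fewer cells of a type and less RNA per cell cannot be told apart.

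**Figure D1:**
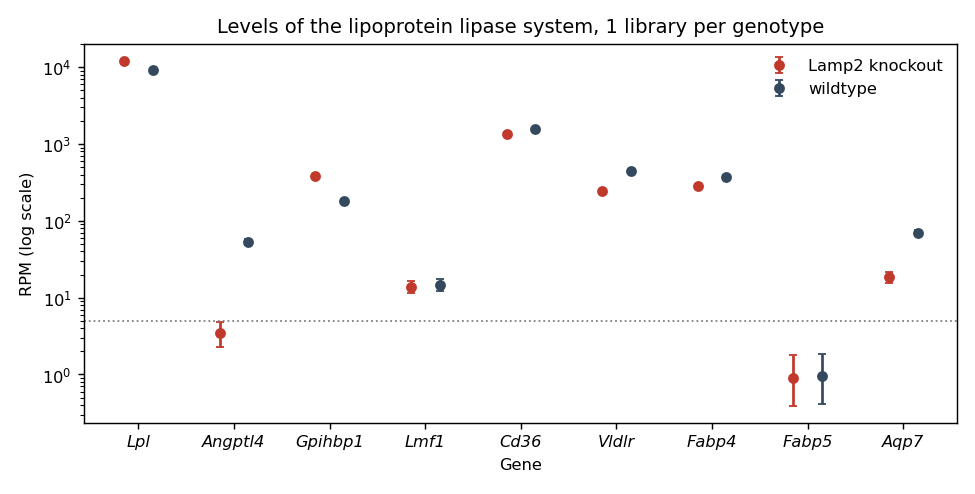
Level of each of the 9 genes in RPM on a log axis, with 1 point per library, the Lamp2 knockout-labelled library in red at the left of each pair and the wildtype in dark blue at the right. Bars are exact 95% binomial counting intervals, mostly smaller than the points, and the dotted line marks 5 RPM. Angptl4 at 3.42 against 52.7 RPM and Aqp7 at 18.4 against 69.4 RPM are the widest pairs, and Fabp5 lies below the line in both libraries.

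Lpl, the lipase itself, lies on the plus strand of chromosome 8 from 68880555 to 68907448 in the mm10 build. It had 104365 reads in the knockout-labelled library, which is 11895 RPM, and 77618 reads in the wildtype, which is 9229 RPM. The ratio of knockout-labelled over wildtype RPM was 1.29 (95% interval 1.28 to 1.30). Under the 3 rescalings it was between 1.13 and 1.21, so the excess was smaller but remained outside counting error. Lpl alone took 1.19% of all reads in the knockout-labelled library and 0.923% in the wildtype. Per kilobase of its longest annotated transcript it stood at 2891 RPM in the knockout-labelled library and 2243 RPM in the wildtype, ranking 25 and 23 among 8973 measured genes with an annotated length. It was by far the most abundant member on that scale.

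The size of the Lpl excess differed along the gene. The table has 2 cDNA clone rows inside the Lpl locus on the same strand. The row AK170106, which begins 3 bases after the Lpl start, had 2310 RPM in the knockout-labelled library and 1495 RPM in the wildtype, a ratio of 1.54 (1.51 to 1.58). The row AK155917, which ends 517 bases before the Lpl end, had 4955 RPM in the knockout-labelled library and 4285 RPM in the wildtype, a ratio of 1.16 (1.14 to 1.17). The intervals of these ratios do not overlap each other or that of the Lpl row. Clone rows were compared with the gene they lie in where both had at least 100 reads in each library. With each host gene cut into 3 equal stretches, the 24 clone rows in the first stretch had a median log2 ratio 0.15 above the host's, and the 18 in the last had a median 0.12 below it. Above the host were 16 of the 24 and 3 of the 18, so a slope of this direction was not particular to Lpl. Quartiles were −0.03 and 0.31 in the first stretch and −0.19 and −0.03 in the last. These sets of clone rows include the pair in Lpl, and the comparison was made after the Lpl rows were seen. Whether a read in a clone row was also counted in the Lpl row is not given. With the reads of both clone rows added, the Lpl ratio was 1.28 (1.27 to 1.29).

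Angptl4, which encodes the secreted inhibitor of lipoprotein lipase, lies on the minus strand of chromosome 17 from 33774900 to 33781575. It had 30 reads or 3.42 RPM in the knockout-labelled library (2.31 to 4.88) and 443 reads or 52.7 RPM in the wildtype (47.9 to 57.8). It is above 5 RPM in the wildtype library only. The ratio was 0.0649 (0.0433 to 0.0940), a 15.4-fold lower level, and it was 0.0567 to 0.0609 under the rescalings. On the scale of RPM + 1, no measured gene had a lower log2 ratio than Angptl4, at −3.60. Nearest to it were Ucp3, a mitochondrial carrier gene, Rgs2, a regulator of G protein signalling, and the receptor gene Gpr22, whose log2 ratios lay 0.18, 0.65 and 1.04 above it. The added 1 RPM shrinks the differences of low genes. Gpr22 had 4 reads in the knockout-labelled library and 64 in the wildtype, and its plain RPM ratio was below that of Angptl4. With 2 libraries a pattern is a single ratio, so this likeness describes its size alone. Gpr22 and Ucp3 are overlapped by rows on the opposite strand, and whether strand was used in counting is not stated.

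Set against the lipase within each library, a measure that no library scaling enters, Angptl4 had 0.287 reads per 1000 Lpl reads in the knockout-labelled library and 5.71 in the wildtype. The ratio of these was 0.0504 (0.0348 to 0.0729). Lpl itself was higher, at an RPM ratio of 1.29, so ratios per Lpl read lie below those of RPM. Angptl2, a secreted relative not known as a lipase inhibitor, was at 48.2 RPM in the knockout-labelled library and 57.1 RPM in the wildtype, a ratio of 0.845 (0.740 to 0.965), with opposite-strand rows across it. Angptl7, another relative, was at 7.29 RPM in the knockout-labelled library and 6.90 RPM in the wildtype, but its row is overlapped on the opposite strand by Mtor. Gm6484, the former symbol of Angptl8, had 0 reads in the knockout-labelled library and 1 in the wildtype.

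Gpihbp1, which encodes the capillary anchor of the lipase, lies on the plus strand of chromosome 15 from 75596658 to 75598213. It had 3351 reads or 382 RPM in the knockout-labelled library and 1526 reads or 181 RPM in the wildtype. The ratio was 2.11 (1.98 to 2.24). It passed 2-fold on the deposited scale only. Under the rescalings the ratio was 1.84 to 1.97 and the log2 ratio 0.87 to 0.98, outside counting error but short of the 2-fold rule. GPIHBP1 is made by capillary endothelial cells, and the summed level of 23 endothelial markers was 1220 RPM in the knockout-labelled library and 1211 RPM in the wildtype, a ratio of 1.01 (0.980 to 1.04). Per 1000 reads of those markers, Gpihbp1 had 313 reads in the knockout-labelled library and 150 in the wildtype, a ratio of 2.09 (1.96 to 2.23). Members of the marker list differed among themselves: 11 of 23 were above 0 on the log2 scale, against 61.2% of all measured genes. Of the 23, 1 was at least 2-fold higher, against 3.35% of all measured genes, and 2 at least 2-fold lower, against 2.37%. The most abundant of them, Cdh5, which encodes the junction protein VE-cadherin, was at 232 RPM in the knockout-labelled library and 241 RPM in the wildtype. Car4 and Tcf15 of the same list had ratios of 1.85 (1.56 to 2.19) and 1.53 (1.31 to 1.80). Meox2 and Aplnr had 0.787 (0.556 to 1.11) and 0.179 (0.105 to 0.291), and 12 of the 23 were below 0. Whether Gpihbp1 differed from other capillary genes was not tested.

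Lmf1, which encodes the chaperone-like factor needed for an active lipase, lies on the plus strand of chromosome 17 from 25579174 to 25662826. It had 120 reads or 13.7 RPM in the knockout-labelled library and 123 reads or 14.6 RPM in the wildtype, a ratio of 0.935 (0.721 to 1.21). At this depth a difference smaller than that interval was not detectable. Its row is described in the table as a non-coding transcript variant, so it may not hold every Lmf1 read.

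**Figure D2:**
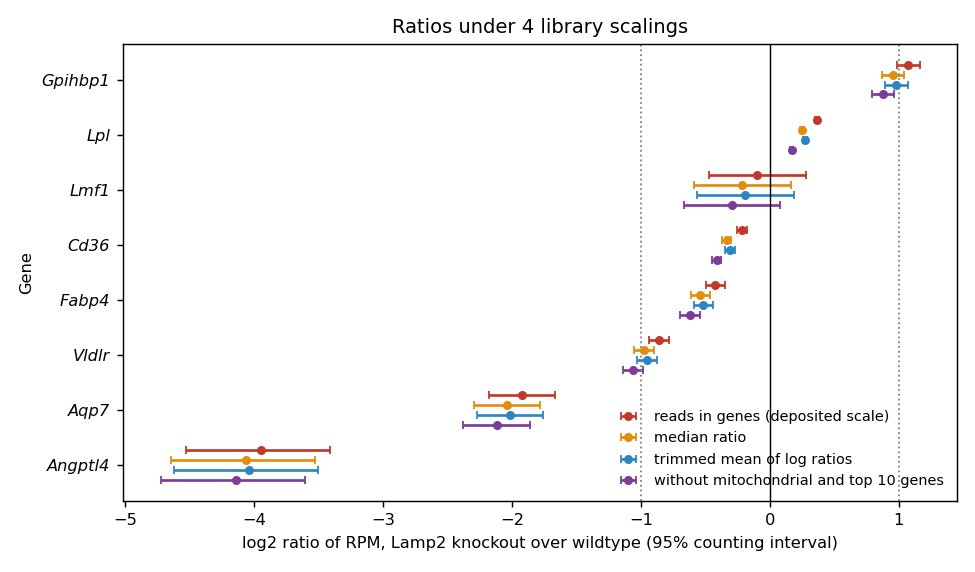
Log2 ratio of RPM, Lamp2 knockout-labelled over wildtype, for the 8 measured genes, with exact 95% counting intervals, on the deposited scale (red) and under 3 rescalings (other colours). Dotted lines mark 2-fold. Angptl4 and Aqp7 lie beyond the left line under every scaling, Gpihbp1 and Vldlr cross a line with the scaling, and Lpl stays above 0 at ratios of 1.13 to 1.29.

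Cd36, which encodes the main fatty acid receptor of heart muscle and capillaries, lies on the minus strand of chromosome 5 from 17781690 to 17888959. It had 11984 reads or 1366 RPM in the knockout-labelled library and 13342 reads or 1586 RPM in the wildtype, a ratio of 0.861 (0.840 to 0.883). The difference was outside counting error, as it was for 51.7% of all measured genes. Per 1000 Lpl reads, Cd36 had 115 reads in the knockout-labelled library and 172 in the wildtype.

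Vldlr, which encodes the receptor for very low density lipoprotein, lies on the plus strand of chromosome 19 from 27217020 to 27254231. It had 2139 reads or 244 RPM in the knockout-labelled library and 3726 reads or 443 RPM in the wildtype. The ratio was 0.550 (0.522 to 0.581), which is 1.82-fold lower. It passed the 2-fold rule only under the reduced total, at a log2 ratio of −1.05. Per 1000 Lpl reads it had 20.5 reads in the knockout-labelled library and 48.0 in the wildtype. Per 1000 reads of cardiomyocyte markers it had 3.58 and 6.31, a ratio of 0.567 (0.537 to 0.598).

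Fabp4, which encodes a fatty acid binding protein of capillary endothelium, adipocytes and macrophages, lies on the minus strand of chromosome 3 from 10204343 to 10208576. It had 2466 reads or 281 RPM in the knockout-labelled library and 3166 reads or 376 RPM in the wildtype, a ratio of 0.747 (0.708 to 0.787). Fabp4 and Gpihbp1, both genes of the same capillaries, thus differed in opposite directions. There were 736 Fabp4 reads per 1000 Gpihbp1 reads in the knockout-labelled library and 2075 in the wildtype, a ratio of 0.355 (0.327 to 0.384). Most measured macrophage markers, by contrast, were higher in the knockout-labelled library. Above 0 were 10 of 11 (8 or 9 under the rescalings), against 61.2% of all measured genes. At least 2-fold higher were 2 (1 or 2 under the rescalings), against 3.35%, and 0 were lower. The 19 in the table summed to 413 RPM in the knockout-labelled library and 246 RPM in the wildtype. The largest part came from C1qa, C1qb and C1qc, at 82.1, 121 and 66.2 RPM against 37.7, 45.8 and 39.8 RPM. Of the 8 markers under 5 RPM in both libraries, Fcgr3 had 35 reads against 33, and Msr1 had 14 in each. The others of these 8 had fewer reads in the knockout-labelled library. The part of macrophages in the Fabp4 level was not tested.

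Fabp5, a near relative of Fabp4 on the plus strand of the same chromosome from 10012606 to 10016610, had 8 reads in each library, 0.912 RPM in the knockout-labelled library and 0.951 RPM in the wildtype. It did not reach the 5 RPM minimum, and its ratio of 0.959 could lie anywhere between 0.314 and 2.93. The low count is uncertain as a level. The GENCODE M21 annotation holds 5 other genes that match a coding Fabp5 transcript at 90% identity or more over at least 200 bases, the longest a processed pseudogene, Gm6166, at 98.3% over 409 bases. How reads that match several places were treated is not given. Of the other 8 genes, 7 had no such match, and Aqp7 had 3 partial ones, the longest over 291 bases.

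Aqp7, which encodes a channel for glycerol and water in adipocytes and heart muscle, lies on the minus strand of chromosome 4 from 41033074 to 41048136. It had 161 reads or 18.4 RPM in the knockout-labelled library and 584 reads or 69.4 RPM in the wildtype. The ratio was 0.264 (0.221 to 0.315), a 3.78-fold lower level, and 0.231 to 0.248 under the rescalings. Only 0.274% of measured genes had a lower log2 ratio. Gpd1, which links glycerol phosphate to glycolysis, was higher at 109 RPM in the knockout-labelled library and 40.4 RPM in the wildtype, a ratio of 2.69 (2.38 to 3.06). The glycerol kinase gene Gyk was at 19.9 RPM in the knockout-labelled library and 18.3 RPM in the wildtype, and the water channel gene Aqp1, named outside the naming rule after its value was seen, had a ratio of 1.01. In the list of glycerol genes and other aquaporins, 1 of 5 measured genes was at least 2-fold higher, against 3.35% of all measured genes. None was at least 2-fold lower, and the median log2 ratio was 0.06. Under 5 RPM, Aqp3, Aqp8 and Aqp11 had 2, 23 and 20 reads in the knockout-labelled library and 0, 3 and 1 in the wildtype. Aqp4 had 5 and 7.

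Fat beside the heart could carry Aqp7, Fabp4, Lpl, Cd36 and Angptl4 reads, so adipocyte markers were read beside them. Of 13 in the table, 10 were under 5 RPM in both libraries and 4 had no read in either, namely Retn, Lep, Adrb3 and Ucp1. The adipocyte hormone gene Adipoq had 1 read in the knockout-labelled library and 2 in the wildtype. The 10 low markers summed to 16 reads or 1.82 RPM in the knockout-labelled library and 85 reads or 10.1 RPM in the wildtype, a split made after the values were seen. Over all 13 the sums were 147 RPM in the knockout-labelled library and 187 RPM in the wildtype, carried by Cidea, Lipe and Tusc5. These sums were lower in the knockout-labelled library together with Aqp7, and their part in its level was not tested.

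The start regions of Aqp7 and Vldlr, both lower in the knockout-labelled library, are shown because PPAR receptors, which act on many genes of this system, bind repeats of the half-site AGGTCA. RefSeq promoter windows on GRCm38.p6 were at hand for 4 of the 9 genes, those of Aqp7, Cd36, Lmf1 and Vldlr. Each sequence is the 250 bases before the gene start that matches the deposited row, 5′ to 3′ on the gene's strand, with any AGGTCA, read on either strand, in capitals.
Aqp7 at chr4:41048137-41048386, minus strand: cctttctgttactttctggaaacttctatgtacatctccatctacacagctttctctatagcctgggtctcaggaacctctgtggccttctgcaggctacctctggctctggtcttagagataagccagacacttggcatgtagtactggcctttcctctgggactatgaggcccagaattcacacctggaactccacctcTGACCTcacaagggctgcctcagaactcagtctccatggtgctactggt
Vldlr at chr19:27216770-27217019, plus strand: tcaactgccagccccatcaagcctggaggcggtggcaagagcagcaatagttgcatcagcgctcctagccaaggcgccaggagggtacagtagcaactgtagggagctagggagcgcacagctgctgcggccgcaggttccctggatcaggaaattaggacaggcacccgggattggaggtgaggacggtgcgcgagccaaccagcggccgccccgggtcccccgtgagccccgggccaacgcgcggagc

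The printed Aqp7 window holds 1 half-site, beginning 49 bases before its start, and the printed Vldlr window none. A second Aqp7 window, for a start 174 bases further into the gene, holds that site and 1 more, 101 bases before its own start, and the second Vldlr window holds none. The single Cd36 window holds 1, but it belongs to a start 53063 bases from that of the deposited row, and the Lmf1 window holds none. In all, 14.0% of 32851 RefSeq windows of the same length hold the half-site on either strand. The direct repeat AGGTCANAGGTCA, which contains the half-site, was in 0.0335% of them and in none of the 6 windows of Aqp7, Cd36, Lmf1 and Vldlr. The core ACGTG of hypoxia-inducible factor sites, also searched on both strands, was in 16.6% of all windows and in none of those 6. A match is a description of letters, and its absence concerns this window alone.

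**Figure D3:**
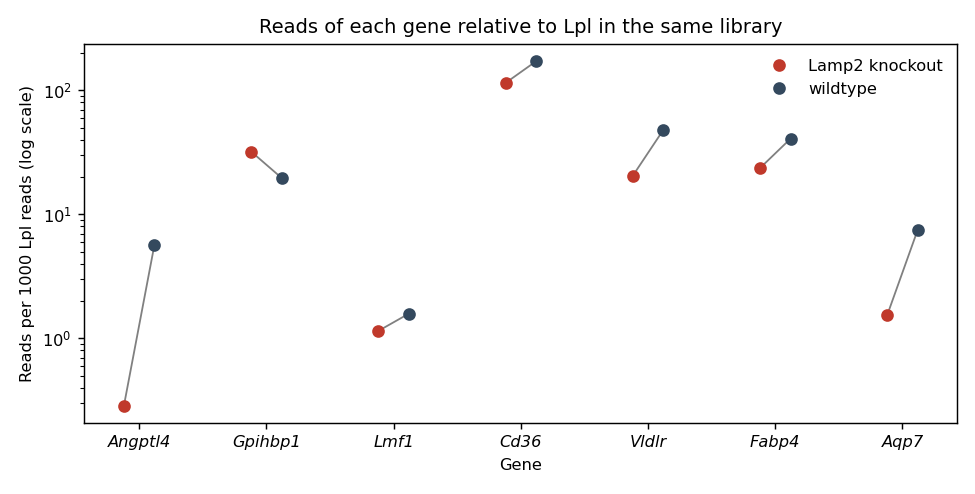
Reads of each measured gene per 1000 Lpl reads of the same library, on a log axis, with the Lamp2 knockout-labelled library in red at the left and the wildtype in dark blue at the right of each pair, joined by a line. No library scaling enters this measure. Lpl itself was higher in the knockout-labelled library, at an RPM ratio of 1.29, so every other gene stands lower here than by RPM. Gpihbp1 is the 1 gene higher in the knockout-labelled library, at 32.1 against 19.7 reads, and Angptl4 has the steepest line, at 0.287 against 5.71 reads.

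The order of the members' levels per kilobase of longest annotated transcript was almost the same in both libraries. In the knockout-labelled library it ran from Lpl through Cd36, Gpihbp1, Fabp4, Vldlr, Aqp7, Lmf1 and Angptl4 to Fabp5. In the wildtype Angptl4 stood before Lmf1 at 15.9 against 3.79 RPM per kilobase, whereas in the knockout-labelled library they had 1.03 and 3.54. Fabp4 depends on the length used. Its longest transcript has 4231 bases and its longest protein-coding one 896, and with the second it moved ahead of Gpihbp1 in both libraries, to 314 RPM per kilobase in the knockout-labelled library and 420 in the wildtype. That length was chosen after the data were seen. Without replicates, whether neighbours in this order differ beyond the spread between animals is unknown.

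**Figure D4:**
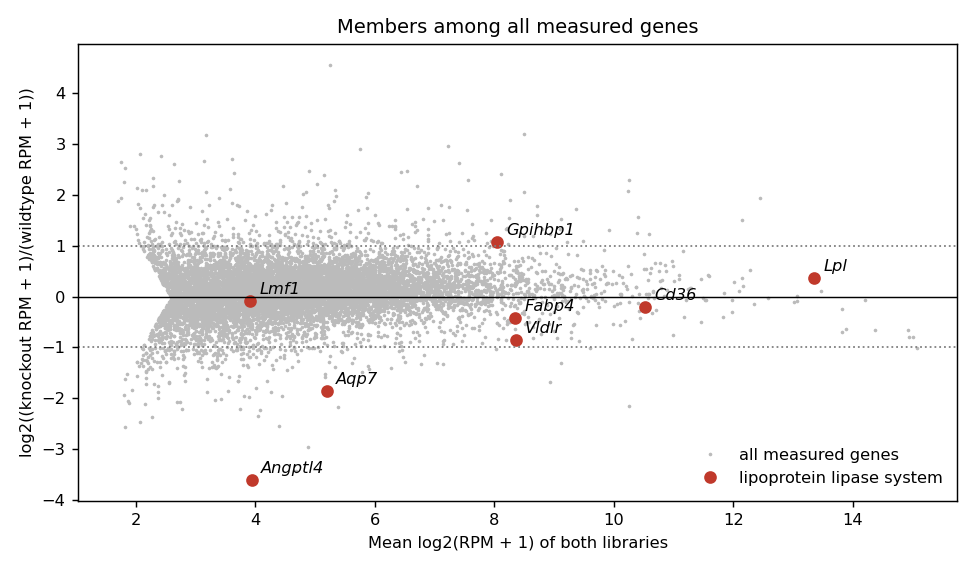
Log2 ratio of RPM + 1, Lamp2 knockout-labelled over wildtype, against mean log2 level for 10209 measured genes (grey, 1 point per gene) and the 8 measured members (red, named). Dotted lines mark 2-fold. Angptl4, at −3.60, is the lowest point of all, Aqp7 lies at −1.86, and Lpl is among the most abundant genes.

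Relatives and cofactors of the lipase were few in the ventricle. Of 19 in the table other than the 9 genes, 5 were measured, and 0 of 5 passed 2-fold in either direction, against 5.72% of all measured genes. Apoe, an apolipoprotein that receptors bind, was at 726 RPM in the knockout-labelled library and 376 RPM in the wildtype, a ratio of 1.93 (1.85 to 2.02). Lipa, the acid lipase of lysosomes, was at 51.9 RPM in the knockout-labelled library and 28.5 RPM in the wildtype. The activator Apoc2 had 2 reads in the knockout-labelled library and 0 in the wildtype, and Apoa5 and Apoc3, made by the liver, had none in either. The median log2 ratio of the 5 was 0.07.

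Genes of lipase folding, proteolytic cleavage and heparan sulfate anchoring gave 0 of 14 measured at least 2-fold higher and 1 at least 2-fold lower, with a median of 0.11. Over all measured genes the shares were 3.35% and 2.37%, and the median was also 0.11. The 1 lower gene was Sdc1, a heparan sulfate proteoglycan, at 3.31 RPM in the knockout-labelled library and 8.09 RPM in the wildtype. Sdc1 reached 5 RPM in the wildtype library only. Sdc4, a more abundant proteoglycan of the same family, was at 148 RPM in the knockout-labelled library and 101 RPM in the wildtype, a ratio of 1.47. Furin, a protease that cleaves lipase and ANGPTL4 alike, was at 851 RPM in the knockout-labelled library and 582 RPM in the wildtype, a ratio of 1.46 (1.41 to 1.51). Pcsk6, a related protease, was lower, with a ratio of 0.651 (0.524 to 0.807).

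Of 12 measured lipoprotein receptors other than Vldlr, 8 had a log2 ratio above 0, near the 61.2% of all measured genes, with a median of 0.22. Of the 12, 1 was at least 2-fold higher, against 3.35% of all measured genes, and 0 lower, against 2.37%. Lrp8, the closest relative of the VLDL receptor, was higher at 5.36 RPM in the knockout-labelled library and 1.43 RPM in the wildtype, on 47 and 12 reads. Lrp8 reached 5 RPM in the knockout-labelled library only. Scarb1, a receptor for high density lipoprotein, had 42.7 RPM in the knockout-labelled library and 26.2 RPM in the wildtype.

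Genes that carry or activate fatty acids after entry were divided. Of 11 measured, 0 passed 2-fold in either direction on the deposited scale, against 5.72% of all measured genes, and the median was 0.00. The transporter gene Slc27a1 was at 238 RPM in the knockout-labelled library and 434 RPM in the wildtype, a ratio of 0.548 (0.520 to 0.579). Acsl1, the main heart enzyme that joins fatty acids to coenzyme A, had a ratio of 0.569 (0.546 to 0.593). Fabp3, the muscle relative of Fabp4, was at 988 RPM in the knockout-labelled library and 1386 RPM in the wildtype. Acsl6 was higher at a ratio of 1.65. Under the reduced total, 2 of the list were at least 2-fold lower, against 3.73% of all measured genes.

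Genes known to control fatty acid passage through endothelium gave 1 of 14 measured at least 2-fold higher and 1 lower, with a median of 0.11. Pparg, a receptor that drives Fabp4 and Cd36, was at 15.5 RPM in the knockout-labelled library and 6.66 RPM in the wildtype, a ratio of 2.33 (1.69 to 3.24), and was past 2-fold under the trimmed mean but under neither of the other two rescalings. Aplnr, the apelin receptor, had 20 reads or 2.28 RPM in the knockout-labelled library and 107 reads or 12.7 RPM in the wildtype. Aplnr reached 5 RPM in the wildtype library only. Tcf15, a transcription factor of heart capillaries that drives Cd36 and Lpl, was higher at a ratio of 1.53 (1.31 to 1.80), and Flt1, a receptor of VEGF-B, at 1.58 (1.45 to 1.73). Under the reduced total, the medians of the lists of lipase relatives, lipase maturation, fatty acid carriers, endothelial control and glycerol genes were −0.10, −0.08, −0.19, −0.08 and −0.12, below 0, as was that of all measured genes at −0.07.

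Angptl4 is a known target of PPAR receptors, of the glucocorticoid receptor and of hypoxia-inducible factors, and lists of other target genes of each were described. These lists were chosen with earlier results of these data known, so the shares beside their counts give no independent comparison. Of 25 measured PPAR target genes, 7 were at least 2-fold lower, 0 higher and 23 below 0, with a median of −0.57. Of all measured genes, 2.37% were at least 2-fold lower and 3957 of 10209 were below 0. Pdk4, the kinase that restrains pyruvate oxidation, was at 580 RPM in the knockout-labelled library and 2560 RPM in the wildtype. Ucp3 was at 6.84 RPM in the knockout-labelled library and 83.2 RPM in the wildtype, and Acot1, near-identical to Acot2 so that reads can be shared, had a ratio of 0.264.

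Glucocorticoid-responsive genes were higher in the knockout-labelled library. All 15 were measured and above 0, against 61.2% of all measured genes, and 12 were at least 2-fold higher, against 3.35%, and 0 lower, with a median of 1.5 (1.30 to 1.40 under the rescalings, with 10 or 11 past 2-fold). This list too was chosen with earlier results known, and its counts depend on which genes were placed in it. It leaves out Angptl4, a target of the same receptor that was lower. Fkbp5, a chaperone of the glucocorticoid receptor, was at 221 RPM in the knockout-labelled library and 48.6 RPM in the wildtype, a ratio of 4.55 (4.09 to 5.07). Cdkn1a, a cell cycle inhibitor, had a ratio of 4.92 (4.54 to 5.34). The metallothionein genes Mt1 and Mt2, which also answer to metals and inflammation, had ratios of 4.87 and 9.19. Of 17 measured hypoxia-responsive genes, 4 were at least 2-fold higher (3 under each rescaling), against 3.35% of all measured genes, and 0 lower. The median was 0.38, with 12 above 0, against 61.2% of all measured genes. The other 5 were below 0, among them Vegfa, Hk2, Pdk1 and Pgk1, with ratios of 0.764, 0.869, 0.918 and 0.943. Under 5 RPM, Ankrd37, Pfkfb4 and Car9 had 5, 10 and 0 reads in the knockout-labelled library and 24, 14 and 2 in the wildtype. Ddit4, an inhibitor of mTOR signalling, Adm, which encodes the vasodilator adrenomedullin, and the glucose transporter gene Slc2a1 had ratios of 3.40, 3.29 and 2.95. Ndrg1, a stress-responsive gene, had a ratio of 2.09, and its row is overlapped on the opposite strand.

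**Figure D5:**
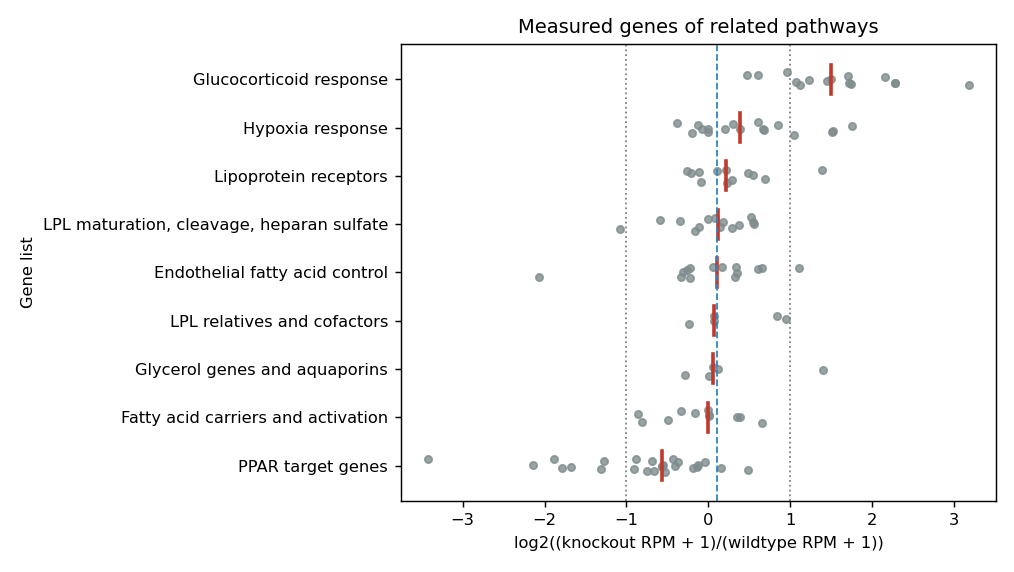
Log2 ratio of RPM + 1, Lamp2 knockout-labelled over wildtype, for each measured gene (grey point) of 9 lists around the lipoprotein lipase system, without the 9 members. Red bars are list medians, the dashed blue line is the median of all measured genes at 0.11, and dotted lines mark 2-fold. PPAR target genes lie lowest, with a median of −0.57, and glucocorticoid-responsive genes highest, with a median of 1.5.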

How the data were processed

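Polyadenylated left ventricle RNA of 1 Lamp2 knockout-labelled and 1 wildtype mouse was compared, grouped by the genotype labels. Per the submitters' processing notes, STAR was used, with mm10 and GRCm38 as builds. The counter, annotation, strand use and handling of multiply matching reads were steps not given in the sources used here. Per the file headers, the authors deposited read counts and normalized values, which equal the count per 1000000 reads in genes (RPM) within 5e-05. The authors' deposited fold and p-value columns were not used.

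Ratios of RPM carry exact conditional binomial (Clopper-Pearson) 95% intervals, except ratios between genes of 1 library, which carry intervals from the normal approximation to the log of the ratio. Since PCR copies cannot be told from separate molecules, intervals cover counting error only. Log2 ratios used a pseudocount of 1 RPM, which understates differences of low genes, and a minimum of 5 RPM. The 3 rescalings used the median ratio, a weighted trimmed mean of log ratios, or a reduced total lacking mitochondrial rows and the 10 most abundant genes. Transcript lengths and copies came from GENCODE M21, with BLAST 2.17.0. The interval and the rule of size were tried on simulated counts drawn with counting error alone. Since the interval assumes that same error, this says nothing about spread between animals or PCR copies. Python 3.11.15, numpy 2.4.6, pandas 2.3.3, scipy 1.17.1 and matplotlib 3.10.9 were used.

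The 9 members, 9 pathway lists and 6 cell type lists were chosen with earlier results of these data known. Named were the members, up to 4 genes per pathway list, those of largest log2 ratio in size, up to 3 abundant genes per cell type list, and the 3 genes nearest to Angptl4 in log2 ratio. Some genes falling under this rule are left unreported here. Genes given by reads alone or to describe a list stand outside that rule. Deposited starts are given plus 1.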

Additional observations from a re-analysis of the deposited data

How the results depend on the processing

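Angptl4 and Aqp7 were at least 2-fold lower under each of the 10 alternatives to the pseudocount, minimum, fold and scaling, which left 2 to 4 of the 9 genes past the rule. Gpihbp1 was not past 2-fold under the 3 rescalings or at 3-fold, and Vldlr was past it at 1.5-fold and under the reduced total, without mitochondrial rows and the 10 most abundant genes. No called direction reversed under these alternatives. With a pseudocount of 5 RPM the log2 ratio of Angptl4 was −2.78. The count over all measured genes, 584, was 269 with a pseudocount of 5 RPM, 312 with a minimum of 20 RPM, 2052 at 1.5-fold and 133 at 3-fold; over the pathway lists, 28 of 114, it was 48 at 1.5-fold and 14 at 3-fold. Each follows from the stricter or looser rule itself. Of the genes past 2-fold, 58.6% were higher in the knockout-labelled library on the deposited scale, against 44.2% with the median ratio, 47.3% with the trimmed mean and 35.8% under the reduced total; in the pathway lists the share was 67.9%, and 51.9% with that total. No paired analysis was possible because each genotype had 1 library. Depth limits Fabp5, at 8 reads in each library, and Angptl4, at 30 reads in the knockout-labelled library.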

Other observations

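Neutrophil genes, which are outside the lipase system, had more reads in the knockout-labelled library. S100a9, a calcium-binding protein gene of neutrophils, had 88 reads in the knockout-labelled library and 5 in the wildtype, and the granule gene Ngp had 28 and 1. Over the 8 blood markers in the table, which include both, 4 were measured, and their sum was 193 RPM in the knockout-labelled library and 198 RPM in the wildtype. The hemoglobin gene Hba-a2, which can share reads with its near-identical copy, had 122 RPM in the knockout-labelled library and 145 RPM in the wildtype. Among endothelial genes, the paralogous transcription factor genes Sox17 and Sox18 differed in opposite directions. Sox17 had 437 reads in the knockout-labelled library and 118 in the wildtype, a ratio of 3.55 (2.89 to 4.39, 95% counting interval), while Sox18 had 173 and 511, a ratio of 0.325 (0.272 to 0.386). All 4 of S100a9, Ngp, Sox17 and Sox18 were singled out after their values were seen.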
